A study of Mus musculus with 6 samples.

Results

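The members are 10 mouse genes that act at the gate from G1 into S phase, chosen by symbol: the D-type cyclins Ccnd1, Ccnd2 and Ccnd3, the E-type cyclins Ccne1 and Ccne2, the kinase gene Cdk6, the retinoblastoma gene Rb1, and the inhibitor genes Cdkn1b, Cdkn2b and Cdkn2c. All 10 were found among the 23420 gene symbols of the count table, and all 10 were among the 11608 genes that passed the filter on low counts. The study asked how the acetylation of the Integrin-β1 tail acts on endothelial cells, and compared mouse embryonic endothelial eEnd2 cells that carry a human Integrin-β1A chimera with GFP in its extracellular part. The chimera was either wildtype (β1-WT-GFP, named WT here) or had the acetylation-mimetic K794Q exchange of a lysine for glutamine (β1-K794Q-GFP, named K794Q here), and in both groups it was driven by a short human β-actin promoter fragment and was present beside the Integrin-β1 of the mouse cells. The cells were transfected, sorted for GFP into populations of low and high signal, and grown to confluence without further treatment, and total RNA was sequenced after removal of ribosomal RNA. There were 3 cultures (A, B and C) in each group, all of 1 cell line. The study's methods describe them as 3 different cultures of the sorted cells of each kind. Which sorted population a culture came from, and whether the letters stand for separate transfections or clones, is not given in the sources used here, so that the p-values measure only the spread between these cultures.

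In the textbook scheme, D-type cyclins rise when growth factors and adhesion receptors signal, and bind the kinases Cdk4 and Cdk6. These complexes begin the phosphorylation of Rb, which holds E2F transcription factors in check. Freed E2F switches on the E-type cyclins and the enzymes of DNA replication, and cyclin E with Cdk2 completes the phosphorylation of Rb. Cdkn1b binds cyclin-Cdk2 complexes, while the INK4 proteins of Cdkn2b and Cdkn2c bind Cdk4 and Cdk6 and keep D-type cyclins from them. Endothelial cells of a closed monolayer normally rest before this gate.

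Each library had between 9589826 and 15287191 counts. Values are listed in the order of cultures A, B and C and are given as normalized counts, meaning CPM, the usual depth-scaled count unit, after TMM scaling of the library sizes. The 10 listed endothelial markers were all tested and 0 of them passed the thresholds given here, with Pecam1 between 1779 and 2818 CPM. One of them, the tight junction gene Cldn5, had 267, 252 and 4.74 CPM in WT cells and 17.5, 0 and 24.3 CPM in K794Q cells (log2 fold change -3.64, edgeR adjusted p = 0.595), so that it was near 0 in WT culture C as well as in K794Q culture B. The study had reported Cldn5 transcripts as decreased in K794Q cells. Markers of epithelium and smooth muscle were near 0, with summed levels of at most 0.592 and 1.53 CPM. The 4 leukocyte markers summed to between 31.8 and 104 CPM, mostly from the lysosomal gene Cd68, with Ptprc at no more than 0.279 CPM and with Csf1r at 10.7 CPM in WT culture C and at most 0.774 CPM elsewhere. The 8 mesenchymal markers summed to between 81.2 and 195 CPM in WT cultures and to at most 3.08 CPM in K794Q cultures. The transcription factor gene Prrx1 made up 183, 194 and 56.5 CPM of this in WT cells and at most 0.0987 CPM in K794Q cells, Pdgfra was at 16.4 CPM in WT culture C, and Twist1, Dcn, Lum and Thy1 were at 0 in every culture. Whether this difference has a part in the results was not tested. Within the groups, WT culture C and K794Q culture B stood apart. Cultures A and B of the WT cells differed at least 2-fold in 65 of the tested genes, against 2701 between A and C, and among K794Q cultures B differed from A and C in 2001 and 2562 genes, against 903 between A and C. Results are therefore also given without these cultures.

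Of the 10 genes, 4 were at least 2-fold higher in K794Q cells with an unadjusted p no greater than 0.05, the pair of thresholds chosen by the study: Ccnd2, Ccnd3, Ccne1 and Ccne2. None of the 10 was lower at these thresholds. Over all tested genes 5.19% passed them, 3.48% as higher and 1.71% as lower. By p alone 5 members passed, the fifth being Rb1, against 10.2% of all genes. With p-values adjusted over all genes (edgeR quasi-likelihood test, Benjamini-Hochberg), 0 members reached an adjusted p of 0.05, as did 0.181% of all genes, whereas DESeq2 and edgeR's likelihood ratio test each gave 2, Ccnd2 and Ccnd3, beside 4.15% and 2.74% of all genes in these tests. In Ccnd2, Ccnd3 and Rb1 the 3 cultures of one group all lay above those of the other, a separation seen in 16.6% of all tested genes. Ccnd2 and Ccne1 were shown by the study for their difference in these same samples, so their calls are not independent of it. The fitted log2 fold change was above 0 in all 10 members with a median of 0.70, beside -0.02 over all tested genes. It was above 0 in 5615 of the 11608 tested genes. All 10 members were chosen with earlier results of these data known. Neither their count of calls nor their shared direction is therefore an unbiased contrast with all genes. In bulk RNA, more transcript in each cell and more cells that hold the transcript, such as cells past the G1 gate, cannot be told apart.

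**Figure D1:**
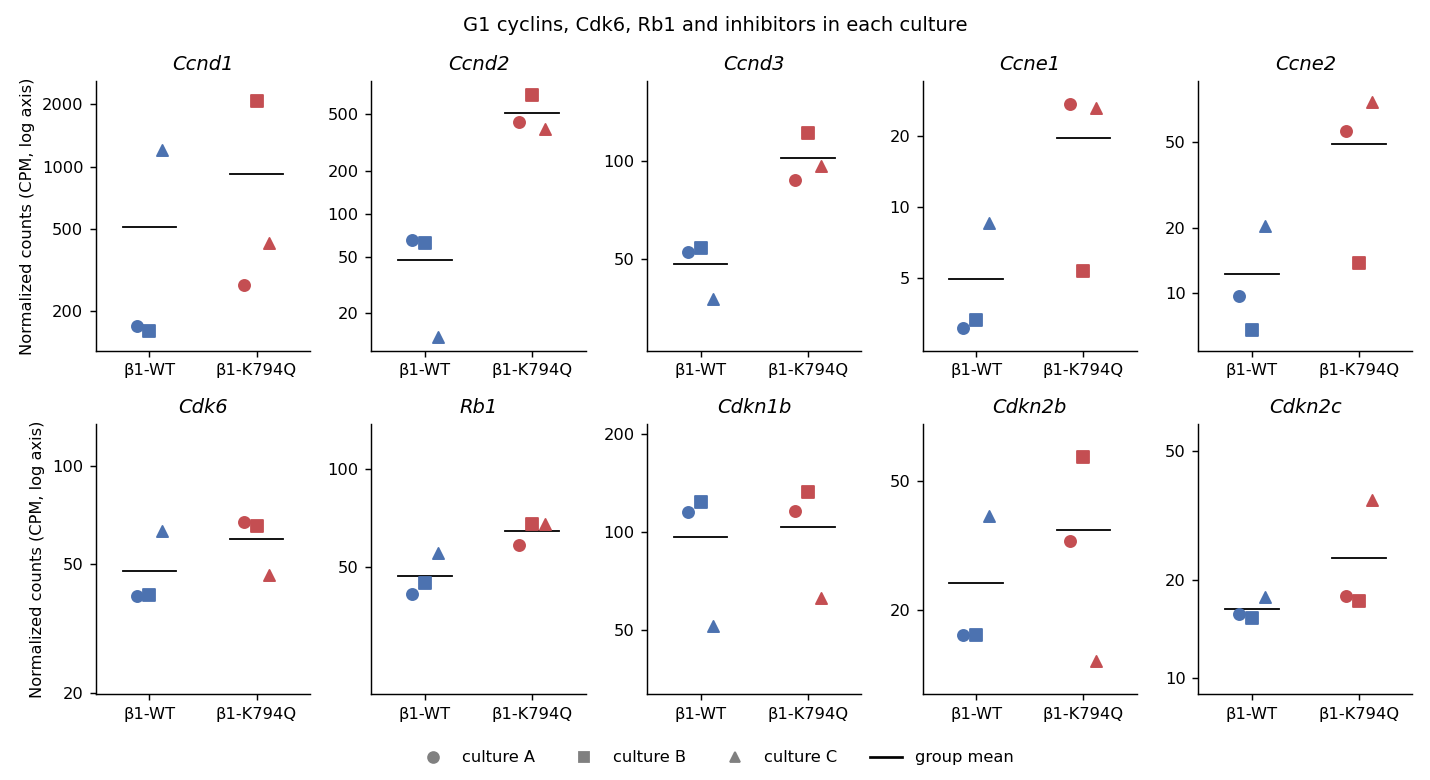
Normalized counts (CPM, log axis) of the 10 genes in each culture of WT (blue) and K794Q (red) cells, with circles, squares and triangles for cultures A, B and C and a line at the group mean. Ccnd2, Ccnd3 and Rb1 separate the groups, while Ccnd1 is highest in WT culture C (1204) and K794Q culture B (2078).

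The D-type cyclin genes did not behave alike. Ccnd1, the D-type cyclin most often tied to mitogen and adhesion signals, had 169, 160.1 and 1204 CPM in WT cells. In K794Q cells it had 267, 2078 and 424 CPM. A single culture in each group was thus far above the other two, by a highest-to-lowest fold of 7.52 and 7.77, and the groups overlapped. The log2 fold change of 0.85 had a 95% interval from -1.79 to 3.50 and an adjusted p of 0.884 in edgeR's quasi-likelihood test (exact permutation test, two-sided, p = 0.5), an interval that leaves room for a large change in either direction. Without K794Q culture B the value was -0.57, and without WT culture C it was 2.49. With both of these cultures left out, the 2 remaining K794Q cultures lay above the 2 remaining WT cultures, with a log2 fold change of 1.09. This value passed the thresholds, as did 14.2% of all genes in that fit. Its edgeR adjusted p was 0.0474 (over all alternatives 0.0474 to 0.999), and 1796 of the 11721 genes in that fit had one of at most 0.05. The cultures left out were picked from these same data and were the highest of their groups in Ccnd1. The narrow spread that remained follows in part from that choice, so this fit is not an independent test.

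Ccnd2, a D-type cyclin that can take the place of Ccnd1 in many tissues, had the largest fitted difference of the 10. The gene spans 127125162 to 127152193 on the minus strand of chromosome 6 (GRCm38). It had 65.8, 62.5 and 13.7 CPM in WT cells and 439, 676 and 391 CPM in those of K794Q. The means were 47.3 ± 29.2 and 502 ± 153 CPM (SD, n = 3), and the lowest K794Q culture was far above the highest WT culture. The fitted fold was 10.6 (95% interval 3.65 to 30.8), with an adjusted p of 0.12 in edgeR's test and the smallest p that the exact permutation test allows, 0.1. It was past the thresholds in 6 of 6 leave-one-out fits, each without a single culture, with log2 values from 2.98 to 3.72. WT culture C, which was high in Ccnd1, was the lowest of all cultures in Ccnd2. An antisense gene at the Ccnd2 start, 9330179D12Rik, had at most 2 counts in any culture.

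Ccnd3, the D-type cyclin known above all from lymphocytes and differentiating cells, showed a smaller but tighter difference. Its levels were 52.5, 53.9 and 37.7 CPM in WT cells and 87.3, 122 and 96.4 CPM in K794Q cells. The means were 48.0 ± 8.98 and 102 ± 17.9 CPM (SD, n = 3). All 3 K794Q cultures were above all 3 WT cultures, and the highest and lowest culture of a group were 1.43-fold apart in WT and 1.39-fold apart in K794Q cells. The log2 fold change was 1.08 (95% interval 0.56 to 1.61, edgeR adjusted p = 0.145, exact permutation p = 0.1). Because the fold is so close to 2, leaving out K794Q culture B (0.94) or WT culture C (0.95) took it under the fold threshold, although the unadjusted edgeR p in these fits was 0.00501 and 0.00369. The cultures followed the same order in Ccnd3 as in Ccnd2 at the ends, with WT culture C lowest and K794Q culture B highest in both. The last exon of Ccnd3 meets the gene Bysl on the opposite strand, whose log2 fold change was -0.04. An annotated pseudogene, Ccnd3-ps, could share reads with Ccnd3, and how the counting treated such reads is not given in the sources used here.

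Compared per length, as CPM per kb of annotated exon, Ccnd1 was the highest of the 10 genes in each of the 6 cultures. The summed level of the 3 D-type cyclins was 48.9, 46.8 and 261 CPM per kb in WT cells and 113, 527 and 143 CPM per kb in K794Q cells. Ccnd2 made up 14.3%, 14.2% and 0.558% of this sum in WT cultures and 41.2%, 13.6% and 29.1% in K794Q cultures. In K794Q culture B the share of Ccnd2 was thus close to that of WT cultures A and B although its level of 71.9 CPM per kb was the highest of all, since Ccnd1 stood at 441 CPM per kb there. Ccnd3 contributed between 1.64% and 13.1%. By mean level, Ccnd2 ranked the seventh of the 10 genes in WT cultures with 5.03 ± 3.10 CPM per kb (SD, n = 3), within the spread of Ccnd3 (5.47 ± 1.02) and Ccne2 (3.53 ± 2.06). In K794Q cultures it was the second, with 53.3 ± 16.2 CPM per kb, ahead of Cdkn2b (25.4 ± 16.4) and Cdkn1b (22.8 ± 8.05), which did not differ beyond their spread. Ccne1 and Cdk6 were at the bottom in both groups, between 1.86 and 7.34 CPM per kb. These levels and shares depend on the annotated exon length and are a description without a test.

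**Figure D2:**
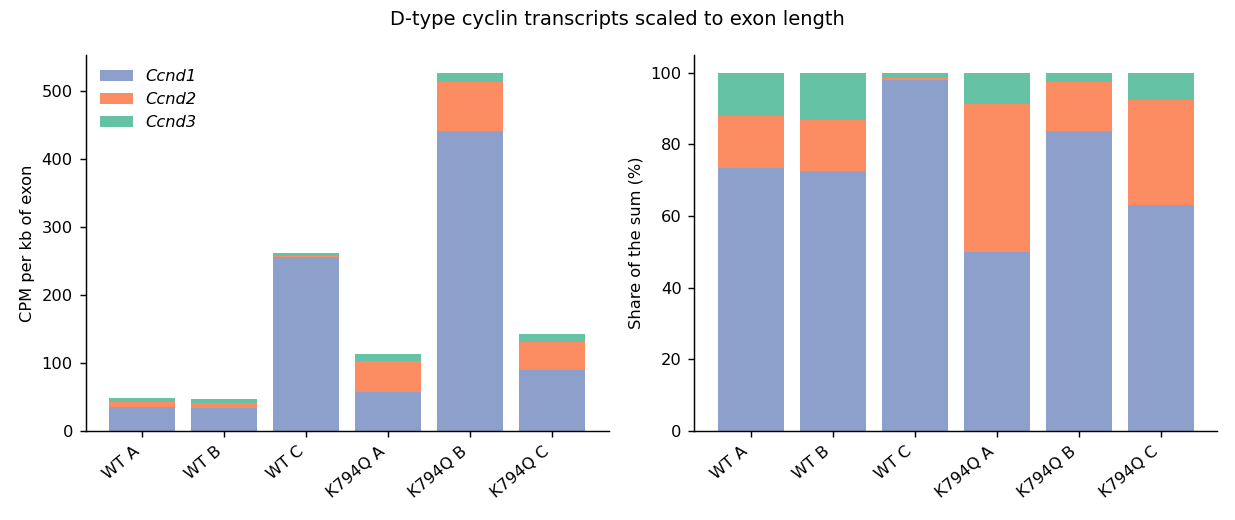
Levels of Ccnd1, Ccnd2 and Ccnd3 in each culture as stacked bars, in CPM per kb of annotated exon (left) and as percent of their sum (right). The sum is highest in K794Q culture B (527) and WT culture C (261), and the Ccnd2 share is highest in K794Q culture A (41.2%).

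The start region of Ccnd3 is shown because this is the D-type cyclin gene that was called here and for which a RefSeq promoter window was matched. For 6 of the 10 genes a window from 250 bases before to 50 bases after an annotated start was matched by symbol in RefSeq (GRCm38.p6), 8 windows in all. Capitals mark GC boxes (GGGCGG on either strand), the core of the site bound by Sp1 family factors. They were found in 6 of the 8 windows and in 35.7% of the 32851 windows of all genes. Ccnd3 has an upstream and a downstream start, and counts per gene do not separate them:
Ccnd3 upstream start, chr17:47504801-47505100, plus strand: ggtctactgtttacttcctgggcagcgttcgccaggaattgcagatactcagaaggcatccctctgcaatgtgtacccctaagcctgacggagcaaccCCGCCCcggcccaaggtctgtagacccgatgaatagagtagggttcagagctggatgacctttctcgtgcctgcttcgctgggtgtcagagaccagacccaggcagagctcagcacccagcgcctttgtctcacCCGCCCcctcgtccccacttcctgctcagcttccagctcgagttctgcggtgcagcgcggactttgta
Ccnd3 downstream start, chr17:47593217-47593516, plus strand: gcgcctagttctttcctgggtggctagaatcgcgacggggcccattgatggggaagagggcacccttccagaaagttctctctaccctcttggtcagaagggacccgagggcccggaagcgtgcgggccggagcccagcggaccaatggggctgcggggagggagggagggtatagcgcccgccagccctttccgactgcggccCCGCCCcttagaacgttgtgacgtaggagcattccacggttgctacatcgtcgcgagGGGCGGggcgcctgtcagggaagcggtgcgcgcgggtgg
Both windows hold 2 GC boxes. The E2F site, searched on both strands as TTTCCCGC, TTTGGCGC, TTTCGCGC or TTTGCCGC, was in neither, so that no GC box overlapped one.

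Both E-type cyclin genes passed the thresholds and showed one pattern over the cultures. Ccne1, whose product activates Cdk2 at the end of G1, had 3.06, 3.30 and 8.50 CPM in WT cells. In K794Q cells it had 27.2, 5.33 and 26.1 CPM. Ccne2, its close relative with the same partner, had 9.71, 6.80 and 20.5 CPM in WT cells. Its K794Q cultures had 55.9, 13.8 and 76.3 CPM. In both genes K794Q cultures A and C were above every WT culture. The value of K794Q culture B fell short of that of WT culture C, and so the groups overlapped.

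The log2 fold changes of Ccne1 and Ccne2 were 1.97 (95% interval 0.24 to 3.71) and 1.98 (0.28 to 3.67), with edgeR adjusted p-values of 0.413 and 0.397 and an exact permutation p of 0.2 for each. Of the 6 fits with a culture removed, both calls held in 2, those without K794Q culture B (2.41 and 2.42) and without WT culture C (2.63 and 2.57), in which 7.95% and 8.38% of all genes passed, and were lost in the other 4, with values from 1.66 to 1.75 for Ccne1 and from 1.50 to 1.87 for Ccne2. In both genes K794Q culture B was the lowest culture of its group and WT culture C the highest of its group. Leaving out either one took away the overlap of the groups, so these 2 fits are not independent tests of the calls. The lowest count of any member was 33, for Ccne1 in WT culture B, for which counting error alone gives 2.27 to 4.63 CPM (exact Poisson 95% interval). Per kb of exon, Ccne1 made up between 29.3% and 39.0% of the sum of both genes in every culture, although that sum ranged from 3.18 to 31.6 CPM per kb. The 2 genes lie on different chromosomes, Ccne1 on chromosome 7 (38097984 to 38107534) and Ccne2 on chromosome 4 (11191351 to 11204779) of GRCm38. The 3′ part of Ccne2 is crossed by Ints8 on the opposite strand, which had a log2 fold change of -0.31. Among the 24 tested genes nearest to Ccne1, 0 passed the thresholds, with a median log2 fold change of -0.06, and 4 of the 24 around Ccne2 did, with a median of -0.12.

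The start of Ccne1 is printed as that of the E-type cyclin with a matched window, again with GC boxes in capitals:
Ccne1, chr7:38107441-38107740, minus strand: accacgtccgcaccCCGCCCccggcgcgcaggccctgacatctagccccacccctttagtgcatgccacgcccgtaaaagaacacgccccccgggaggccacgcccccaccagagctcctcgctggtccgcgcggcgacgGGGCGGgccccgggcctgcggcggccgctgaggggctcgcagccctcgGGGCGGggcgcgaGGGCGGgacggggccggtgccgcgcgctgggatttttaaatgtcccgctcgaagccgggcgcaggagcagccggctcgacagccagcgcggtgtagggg
It holds 4 GC boxes and 76.0% G and C. None of the 4 spellings of the E2F site was in this window or in the other 7 windows of the members, while 2.26% of all windows hold one. The search says only that these letters are not within these 300 bases.

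Cdk6, the kinase partner of D-type cyclins best known from blood cells, did not differ clearly between the groups. It had 39.9, 40.1 and 63.2 CPM in WT cells and 67.2, 65.5 and 46.3 CPM in K794Q cells. WT culture C lay near the upper K794Q values and K794Q culture C near the lower WT values, so that the groups overlapped. In the fit of all 6 cultures, its log2 fold change of 0.32 had a 95% interval from -0.31 to 0.95 (edgeR adjusted p = 0.781). A difference of over 2-fold lay outside this interval. Without WT culture C the value was 0.59 (edgeR unadjusted p = 0.0375, adjusted p = 0.273), and without K794Q culture B it was 0.25. With both left out it was 0.52 (edgeR unadjusted p = 0.0522). The level of Cdk6 was far under that of the other D-type cyclin partner, Cdk4. Per kb of exon, Cdk6 made up between 1.54% and 6.55% of the sum of Cdk4 and Cdk6 (WT mean 4.16%, or 3.22% with the longest transcript as length).

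Rb1, whose product restrains E2F, had 41.2, 44.7 and 55.1 CPM in WT cells and 58.4, 67.6 and 67.9 CPM in K794Q cells. The groups did not overlap, by a narrow margin between 55.1 and 58.4. The difference was small, a log2 fold change of 0.46 (95% interval 0.04 to 0.88, unadjusted p = 0.0376 and adjusted p = 0.437 in edgeR's test), and it stayed between 0.37 and 0.60 when each culture was left out. In 5 of these 6 fits the unadjusted edgeR p rose above 0.05 (0.0565 to 0.132), as it did in the likelihood ratio test (0.101). Rb1 is crossed on the opposite strand by Rcbtb2 and Lpar6, and the strand setting of the counting is not given in the sources used here. These had log2 fold changes of 0.07 and 0.06 (edgeR adjusted p = 0.978 and 0.979).

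**Figure D3:**
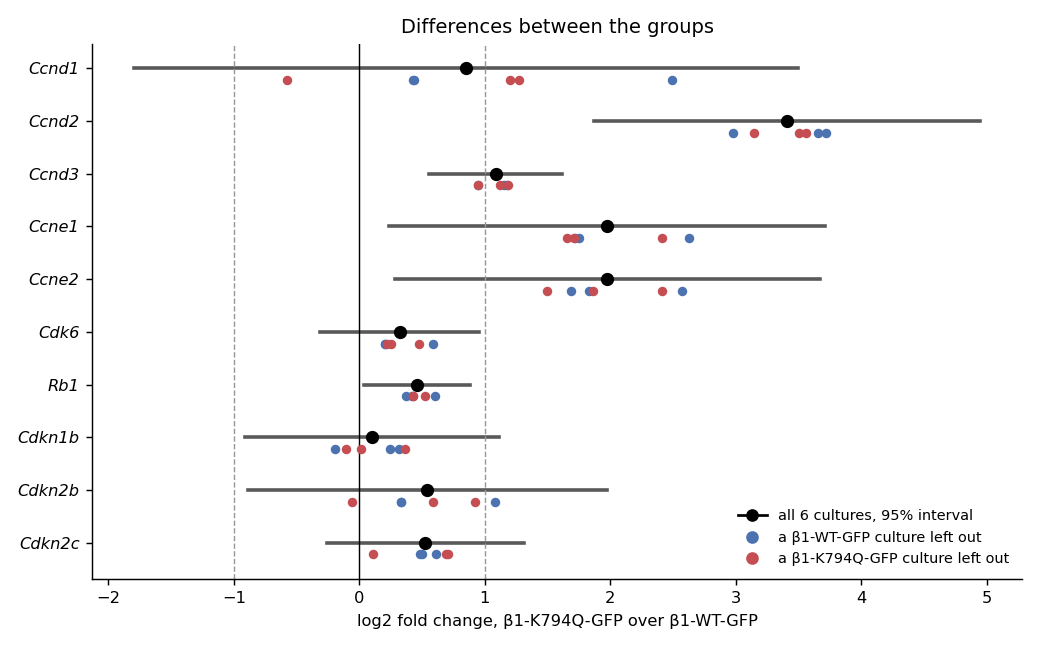
Log2 fold change of K794Q over WT cells for each gene in the fit of all 6 cultures (black, bars are 95% intervals) and in the leave-one-out fits (blue and red), with dashed lines at 2-fold. Ccnd2 stays between 2.98 and 3.72 while Ccnd1 ranges from -0.57 to 2.49.

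None of the 3 inhibitor genes passed the thresholds, nor an unadjusted p of 0.05, in edgeR's test. Cdkn1b, which encodes the Cip/Kip inhibitor that builds up in resting cells, had 115, 124 and 51.3 CPM in WT cells and 116, 132 and 62.4 CPM in K794Q cells. Culture C was the lowest in both groups, and cultures A and B were alike across the groups. The log2 fold change of 0.10 had a 95% interval from -0.91 to 1.12 (edgeR adjusted p = 0.97), and its sign turned without K794Q culture B (-0.10) or WT culture C (-0.19).

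Cdkn2b, an INK4 inhibitor known as a target of TGF-β signals, had 16.8, 16.8 and 39.1 CPM in WT cells. The K794Q cells had 32.6, 59.4 and 13.9 CPM, so that culture C was the lowest and culture B the highest of all 6. Both cultures that were high in Ccnd1 were also the highest in Cdkn2b. The log2 fold change was 0.54 (95% interval -0.89 to 1.97, edgeR adjusted p = 0.853) and its sign turned (-0.061) when K794Q culture B was removed. Cdkn2c, the INK4 inhibitor that E2F can itself induce, had 15.7, 15.3 and 17.7 CPM in WT cells, which are close together, and 17.8, 17.2 and 35.1 CPM in K794Q cells. Only K794Q culture C was apart from the rest, and the log2 fold change of 0.53 (95% interval -0.26 to 1.31, edgeR adjusted p = 0.693) was 0.11 without it.

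The spread within a group was wide for these genes. The highest culture was at least 2-fold above the lowest in 6 of the 10 members in K794Q cells and in 6 of the 10 in WT cells, beside 27.5% and 26.0% of all tested genes. Ccnd1, Ccne1, Ccne2, Cdkn1b and Cdkn2b were in both sets. Ccnd3, Cdk6 and Rb1 were in neither.

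In 67 other genes of the G1 pathway, from 6 lists, 5 passed both thresholds, all of them higher in K794Q cells, which is 7.46% of them beside 5.19% of all genes. They were Cdk2, Cdkn1a, E2f1, Klf4 and Tyms. The count was 32 with WT culture C and K794Q culture B left out together, where 14.2% of all genes passed. It was 18 without either of them alone, where 8.38% and 7.95% of all genes passed, and 3 without any 1 of the other 4 cultures. The 2 cultures were picked from these same data. In the list of 20 E2F output genes, WT culture C was among the 3 highest cultures in 19 and K794Q culture B among the 3 lowest in 17. The higher counts without them follow in part from that choice and are not independent tests. The kinase genes Cdk2 and Cdk4, like the E-type cyclins, were highest in K794Q cultures A and C, although Cdk2 was lowest in WT culture C, the highest of the WT cultures in Ccne1 and Ccne2. Cdk2 had 58.0, 55.8 and 47.1 CPM in WT cells and 237, 61.8 and 272 CPM in K794Q cells (log2 fold change 1.83, edgeR adjusted p = 0.288). The study also showed Cdk2 as raised in these same samples, so its call is not independent of the study. Cdk4 had 213, 223 and 326 CPM in WT cultures and 594, 217 and 685 CPM in K794Q cultures, and its log2 fold change of 0.97 did not pass the thresholds. Both lie on chromosome 10, in regions whose neighbouring genes were also higher, by a median log2 fold change of 1.39 for the 23 nearest tested genes of Cdk2 and of 1.11 for the 24 of Cdk4. With the level of the neighbourhood taken out, the values were 0.36 and -0.19 and neither passed. For the 10 members the median of the neighbours lay between -0.12 and 0.05.

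Cdkn1a, the Cip/Kip inhibitor best known as a target of p53, had 31.8, 35.5 and 46.9 CPM in WT cells and 394, 306 and 306 CPM in K794Q cells. It rose with a log2 fold change of 3.14 (edgeR adjusted p = 0.0198) and passed both thresholds in 6 of 6 leave-one-out fits, although its adjusted p there went up to 0.237. Of the other inhibitors 0 of 3 passed. E2f1, an activating E2F, had a log2 fold change of 1.11 (edgeR adjusted p = 0.425) and was the 1 of 12 pocket protein and E2F genes to pass, a call kept in 2 of the 6 leave-one-out fits. Klf4, a transcription factor that endothelial cells raise under laminar flow, was the 1 of 12 transcription inputs, with 71.0, 72.6 and 102 CPM in WT and 192, 283 and 153 CPM in K794Q cultures (log2 fold change 1.36, edgeR adjusted p = 0.161). Of the 13 genes for the turnover of cyclins and Cdkn1b, 0 passed in edgeR's test, also by unadjusted p alone, with log2 fold changes from -0.65 to 0.48.

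The E2F output genes, 20 genes of DNA replication and nucleotide supply, ordered the cultures in part as the E-type cyclins did, with a difference in WT culture C. Only Tyms, the thymidylate synthase gene, passed both thresholds (log2 fold change 1.02, edgeR adjusted p = 0.366, and 0.96 with a replicate block). This call was kept in 2 of the 6 leave-one-out fits, with values from 0.69 to 1.29. The groups overlapped in Tyms, with 40.8 CPM in K794Q culture B and 41.3 CPM in WT culture C. Pcna, at a log2 fold change of 0.98, fell just under the fold threshold (edgeR unadjusted p = 0.0068, adjusted p = 0.228), and its groups did not overlap. All 20 had a log2 fold change above 0 with a median of 0.78, beside 5615 of the 11608 tested genes above 0. The 20 genes moved together from culture to culture, so their shared direction is not 20 separate results. K794Q culture C was the highest culture in 16 of the 20 genes and WT culture B the lowest in 12. WT cultures A and B were among the 3 lowest cultures in 20 of 20 genes each, joined by K794Q culture B in 17. WT culture C was among the 3 highest cultures in 19. Relative to the mean of the 6 cultures, the median of the 20 genes on the log2 scale was -0.93, -1.31 and 0.38 in WT cells and 0.49, -1.09 and 0.87 in K794Q cells. For Ccne1 these values were -2.00, -1.89 and -0.53 in WT cultures and 1.15, -1.20 and 1.09 in K794Q cultures. WT culture C was close to K794Q culture A in the E2F output genes (0.38 and 0.49). It was well under that culture in Ccne1 (-0.53 and 1.15) and Ccne2 (-0.58 and 0.87). The E-type cyclins and the E2F output genes thus had K794Q culture B at the low end beside WT cultures A and B, whereas Ccnd1, Ccnd2 and Ccnd3 were each highest in that same culture.

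**Figure D4:**
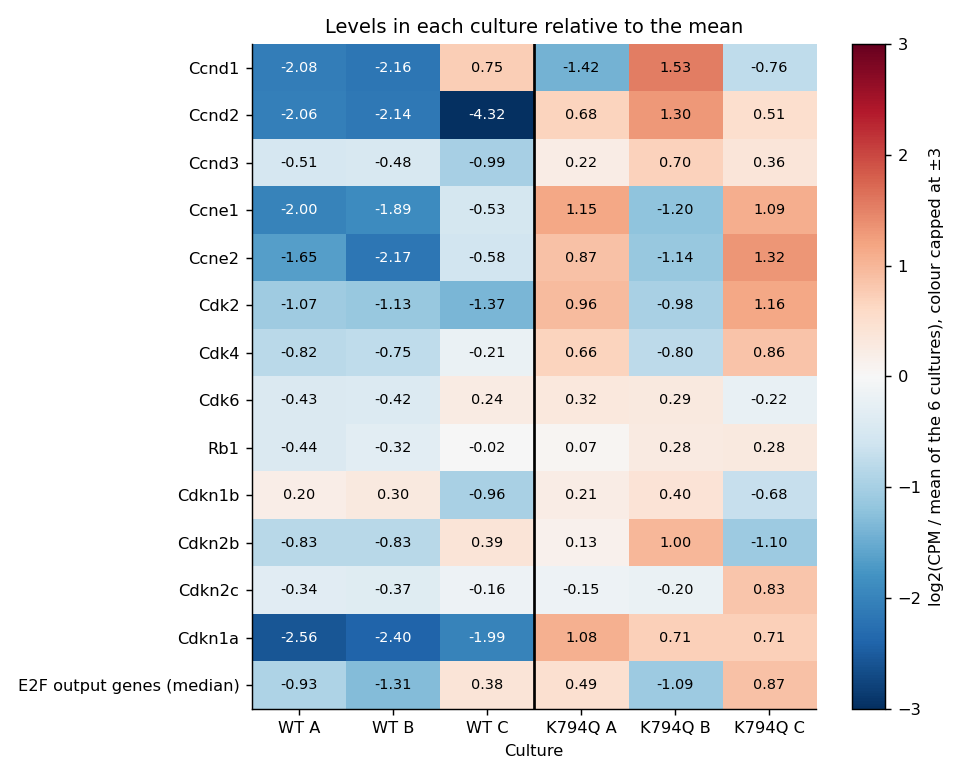
Heatmap of log2(CPM / mean of the 6 cultures) for the members, the partners Cdk2 and Cdk4, Cdkn1a and the median of 20 E2F output genes, with cultures in columns and the value printed in each cell. In K794Q culture B, Ccnd1 (1.53) and Ccnd2 (1.30) are high while Ccne1 (-1.20), Ccne2 (-1.14), Cdk2 (-0.98) and the E2F output genes (-1.09) are low.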

How the data were processed

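Total RNA of 3 WT and 3 K794Q cultures was depleted of ribosomal RNA and sequenced. Raw counts per gene symbol were deposited by the authors, and the submitters' processing notes name STAR 2.7.4a, HTSeq 0.9.1 and mm10, the build also called GRCm38. Annotation and strand setting are not given in the sources used here. Library totals were between 9589826 and 15287191 counts, so that a count of 0 allows a level of up to 3 counts, or 0.209 to 0.300 CPM (counting error only). The study describes 2 sequencing runs of these samples, and the labels do not say which was deposited.

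The study's methods name a negative binomial general linear model of edgeR, and here counts were fitted over the whole table in R 4.3.3 with edgeR 4.0.16 (filterByExpr, TMM, glmQLFit and glmQLFTest, two-sided, no block), with Benjamini-Hochberg adjustment over 11608 genes. The standard error is the log2 fold change divided by the square root of F, and intervals use the test's degrees of freedom. CPM in the text are counts over the TMM-scaled library size. Exact permutation tests used log2(CPM + 0.5), and 0.1 is the smallest p that 3 against 3 cultures allow. Exon lengths and positions came from GENCODE M21 (GRCm38) by symbol, 21737 of 23420 directly and 1257 through a synonym. The fits were first tested on simulated counts. Alternatives were 2 other filters, RLE scaling, DESeq2 1.42.0, the likelihood ratio test, the culture letter as a block, a regional offset (running median of 25 genes), and left-out cultures. Cultures A and B of WT cells were alike but differed beyond counting error (chi-square of 9.97 per degree of freedom) and were kept as 2 samples.

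The named genes are the 10 members, the pathway genes past both thresholds, and Cdk2 and Cdk4. The markers named singly, Pcna and the overlapping genes were picked after their values were seen. The members and lists were chosen with earlier results of these data known.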

Additional observations from a re-analysis of the deposited data

How the results depend on the processing

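The 4 called members stayed called with no filter on low counts, with at least 10 counts in every culture, with RLE scaling, DESeq2, the likelihood ratio test and the regional offset. With the culture letter as a replicate block, the 4 also remained, with log2 fold changes of 3.65 for Ccnd2, 1.09 for Ccnd3, 1.82 for Ccne1 and 1.83 for Ccne2, and Tyms (0.96) fell under the fold threshold. The letters were not taken as pairs: deviations of same-lettered cultures correlated at 0.0947, 0.0548 and 0.0952 for A, B and C, and not every culture correlated best with its own letter. With 1 culture left out, between 2 and 3 members were called, 2 in each of the fits without K794Q culture A or C or WT culture A or B. Pathway genes called then ranged from 3 to 18 and all genes from 501 to 992. Without WT culture C and K794Q culture B together, 4 members (Ccnd1 in place of Ccnd3, which was 0.80), 32 pathway genes and 1661 of all genes were called, and with no filter 916 of all genes. WT culture C and K794Q culture B were picked from these same data, so the counts without them are not independent tests. With 1 culture left out, Ccnd1 ranged from -0.57 to 2.49, Cdkn2b from -0.061 to 1.08 and Cdkn1b from -0.19 to 0.36. The direction turned for Ccnd1 and Cdkn2b without K794Q culture B, for Cdkn1b without it (-0.10), without WT culture C (-0.19) and without both (-0.40), and for Cdk4 with the regional offset (-0.19). The cause was not tested. Over the alternatives the adjusted p of Ccnd2 ranged from 1.8e-06 to 0.487 and that of Ccnd3 from 0.00298 to 0.518. With the longest transcript as length, the mean Ccnd3 share of D-type cyclin level in K794Q cells was 10.3% in place of 6.37%, and the mean Cdk6 share of Cdk4 and Cdk6 in WT cells was 3.22% in place of 4.16%. The shares of Ccnd2 and Ccne1 moved by less than their spread. The lengths for Cdk6 and Ccne1 were varied after seeing the data. Depth limited Ccne1 most, whose lowest count of 33 has a counting interval of 2.27 to 4.63 CPM beside WT values from 3.06 to 8.50 CPM.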
